A study of Mus musculus with 8 samples.

Results

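Glycolysis, the pentose phosphate pathway and the hypoxia response were followed through 38 mouse genes in a macrophage line given menthol, lipopolysaccharide (LPS) or both. The genes were chosen by name: 26 of glycolysis, lactate transport and the entry of pyruvate into mitochondria, 4 of the pentose phosphate pathway, and 8 that encode the hypoxia-inducible factor HIF, its prolyl hydroxylases and its targets. Earlier results of these data were known when they were chosen. Each gene was read from 1 probe set, the one with a single gene symbol and the highest mean over all arrays. A probe set was found in this way for 35 of the 38 genes, and Gpi1, Eno1 and G6pdx were not analysed here. The mean of 30 of the 35 lay above 4.84, the mean of all probe sets on the log2 scale, and these were tested (22 of glycolysis and lactate, 3 of the pentose phosphate pathway and 5 of the HIF group). In the whole series 18194 genes had such a probe set and 8909 were tested. The cells were RAW 264.7, an established macrophage line derived from a mouse tumour, and total RNA was read on 8 Affymetrix mouse genome arrays, 2 per group. LPS+M cells had menthol for 1 h and then LPS at 100 ng/ml for 6 h, LPS cells had LPS at 100 ng/ml for 6 h, M cells had menthol for 1 h, and C cells had the control treatment. All groups share the cell line and its medium. The labels give no dose of menthol and no harvest time for M and C cells, so time in culture cannot be told apart from LPS in the comparisons of LPS+M or LPS cells with M or C cells, nor can the time since menthol be compared between LPS+M and M cells. The labels name the arrays of a group biological replicates without saying that they came from separate cultures. Each p-value thus rests on how far arrays of the same group lay apart, possibly for technical reasons. In the limma fit this spread was pooled over all groups and drawn towards that of other genes.

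Glycolysis turns glucose into pyruvate in the cytosol, and lactate dehydrogenase turns pyruvate into lactate, which leaves the cell through monocarboxylate transporters. The pentose phosphate pathway branches off after the first step and makes NADPH and ribose phosphate. HIF is a transcription factor whose alpha subunit is marked for breakdown by prolyl hydroxylases when oxygen is plentiful, and it turns on genes of glucose uptake, glycolysis and adaptation to low oxygen. Macrophages stimulated with LPS are known to take up more glucose and to rely more on glycolysis, and HIF is a known regulator of that state. Enzyme activity, metabolites and protein were not measured on these arrays.

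HIF binds DNA at the core of the hypoxia response element, ACGTG or GCGTG. The windows before the start of Slc2a1, the main glucose transporter of most cells, and Hk2, the inducible hexokinase, are shown because these genes changed most in the glycolysis group. That of Ldha, a classic HIF target, is shown because its signal hardly differed between the groups. Each is the RefSeq sequence of the 250 bases before the start on build GRCm38.p6, on the strand of the gene, with matches to either core on either strand in capitals.

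Slc2a1, chr4:119108495-119108744 (+): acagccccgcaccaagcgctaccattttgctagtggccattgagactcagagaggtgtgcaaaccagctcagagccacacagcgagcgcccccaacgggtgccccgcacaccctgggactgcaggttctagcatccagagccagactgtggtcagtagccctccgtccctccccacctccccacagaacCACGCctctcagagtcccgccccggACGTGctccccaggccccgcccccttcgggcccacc
Hk2, chr6:82774455-82774704 (-): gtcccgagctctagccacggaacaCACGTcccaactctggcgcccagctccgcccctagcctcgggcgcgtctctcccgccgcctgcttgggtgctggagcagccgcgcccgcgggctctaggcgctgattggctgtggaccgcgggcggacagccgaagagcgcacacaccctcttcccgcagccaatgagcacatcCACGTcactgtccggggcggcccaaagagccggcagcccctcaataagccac
Ldha, chr7:46845554-46845803 (+): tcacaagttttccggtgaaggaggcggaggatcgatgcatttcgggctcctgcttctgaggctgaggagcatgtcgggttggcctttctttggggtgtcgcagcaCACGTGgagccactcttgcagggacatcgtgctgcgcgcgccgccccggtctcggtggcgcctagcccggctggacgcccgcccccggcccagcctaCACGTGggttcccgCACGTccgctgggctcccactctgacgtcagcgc

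The Slc2a1 window held GCGTG on the other strand, starting at position -61 from the gene start, and ACGTG on the gene's strand at -36. The Hk2 window held ACGTG on the other strand at -226 and -52. The Ldha window held 5 matches to ACGTG at 3 places, 2 of which read as a match on both strands. Of the 38 genes, 37 had at least 1 window in the RefSeq table and Ndrg1 had none. At least 1 core was present in 42 of their 52 windows (80.8%), against 57.9% of the 9409 windows of the genes tested here and 38.6% of all 32851 windows. The median GC content was 60.4% in the members' windows, 60.0% in those of the genes tested here and 52.4% in all, and its part in the share of windows with a core was not tested. A match is a match of letters only, and cores stood before Ldha, which differed little between the groups, as well as before Slc2a1 and Hk2.

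**Figure D1:**
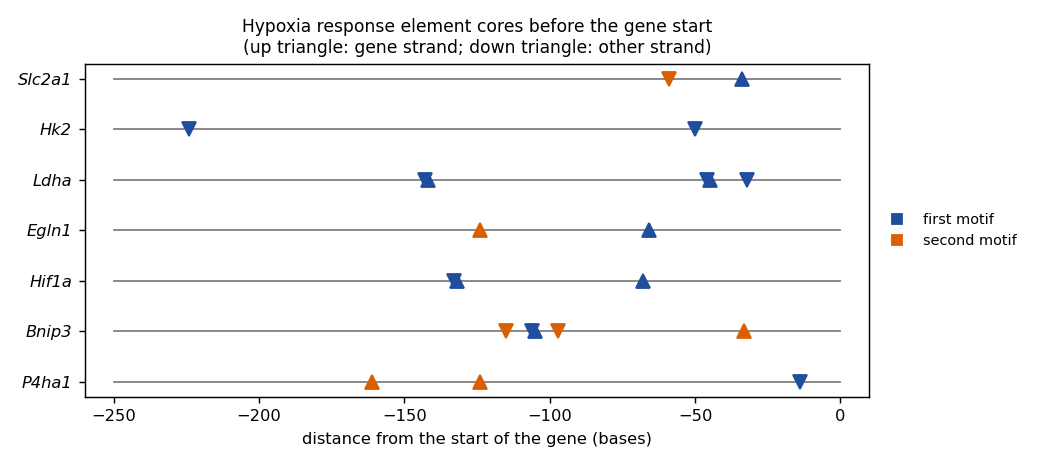
Matches to the hypoxia response element core in the first window of 7 members, by distance in bases from the start of the gene (horizontal axis). Blue triangles are ACGTG and orange triangles GCGTG, pointing up on the gene's strand and down on the other. The 7 windows are a selection, and each holds at least 2 matches. Of the called members not drawn, Hk1 had 0 matches in its first window and Pfkfb3 had 1.

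The array medians lay between 2.99 and 3.04 on the log2 scale. Normalization to one distribution makes medians alike, so they do not measure quality. The arrays of a group correlated at 0.999 across probe sets, a value that differences between genes largely set. All 10 macrophage markers lay above the filter, with 10.0 to 15.5 on the log2 scale, while none of the 16 measured markers of other cell types did (1.69 to 3.83). Gapdh was read by probe sets at the 5' end, the middle and the 3' end of its transcript, and the 3' minus the 5' signal was -0.20 to -0.27 on all 8 arrays, with no group apart. The number of arrays limits the precision.

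A call needed both a fold of at least 1.5 and, in a limma fit of all 8 arrays, a p under 0.05 after Benjamini-Hochberg adjustment over all 8909 genes. The value behind ± is the standard error from this fit, with 2 arrays per group throughout. In M compared to C cells, 2 of the 30 tested members rose and none fell, where 3.01% of all genes rose and 1.54% fell. In LPS compared to C cells 3 rose and none fell, against 3.17% and 2.96% of all genes. In LPS+M compared to LPS cells 1 rose and none fell (4.22% and 2.49% of all genes), and in LPS+M compared to M cells 1 rose and none fell (2.39% and 1.77%). In LPS+M compared to C cells 3 rose and 1 fell (5.53% and 4.3%), and in LPS compared to M cells 1 was higher and 3 were lower (4.59% and 6.7%). These shares were set by few genes: 7 members, Slc2a1, Hk2, Hk1, Pfkfb3, Pfkm, Ndrg1 and Egln1, made up all the calls. The comparisons share groups, so a call in one is not independent of a call in another. Some pairs share no array: M with C and LPS+M with LPS, LPS with C and LPS+M with M, and LPS+M with C and LPS with M. Even these use the same estimate of a gene's spread, so their calls are not independent either.

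**Figure D2:**
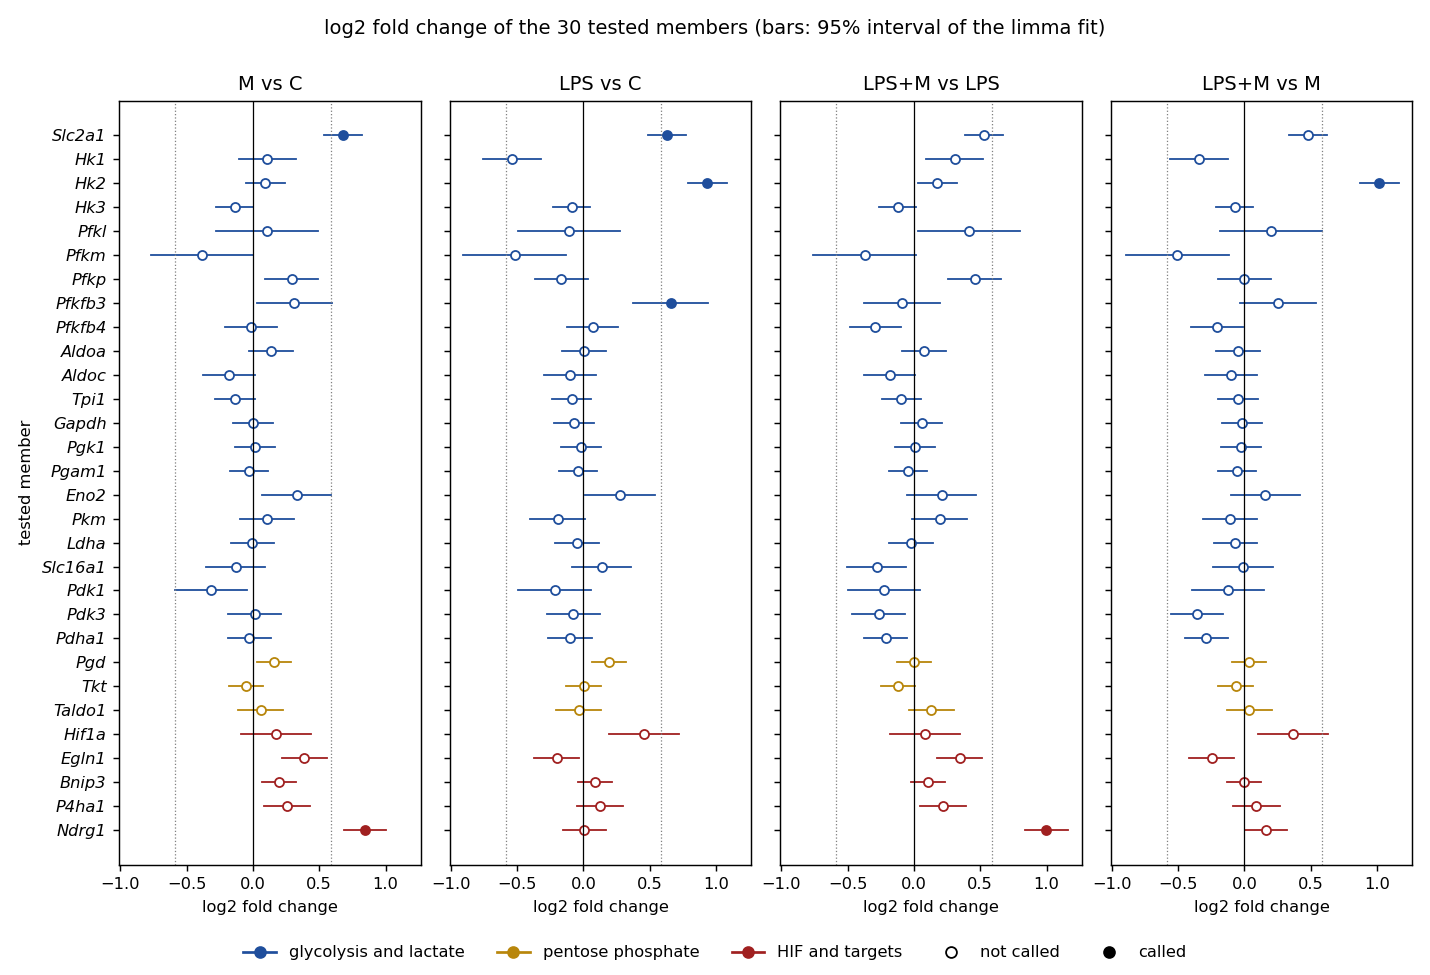
log2 fold change (horizontal axis) of the 30 tested members (rows) in 4 comparisons, with the 95% interval of the limma fit as a bar and filled points for called members. Dotted lines mark the fold minimum of 1.5, and of the points only Slc2a1, Hk2, Pfkfb3 and Ndrg1 are filled.

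Glucose uptake and the first step of glycolysis held the largest changes of the glycolysis group. Slc2a1, which encodes the glucose transporter GLUT1, had a log2 signal of 14.63 and 14.57 in LPS+M cells, 14.05 and 14.09 in LPS cells, 14.16 and 14.08 in M cells, and 13.45 and 13.43 in C cells. The LPS+M arrays were the highest and the C arrays the lowest, with LPS and M in between and overlapping each other. Slc2a1 rose in M compared to C cells by 0.68 ± 0.06 on the log2 scale (1.60-fold, limma adjusted p = 0.000568) and in LPS compared to C cells by 0.63 ± 0.06 (1.54-fold, limma adjusted p = 0.000398). With both agents it rose against C cells by 1.16 ± 0.06, or 2.23-fold (limma adjusted p = 1.28e-05). The arrays read RNA from all cells of a culture, so fewer cells of a type and less RNA per cell cannot be told apart. LPS+M exceeded LPS by 0.53 ± 0.06 (limma adjusted p = 0.000961) and M by 0.48 ± 0.06 (limma adjusted p = 0.00201), both past the adjusted p but under the fold minimum. The other probe sets of the gene gave 0.60 and 0.87 for LPS+M against LPS and 0.53 and 0.65 for LPS+M against M. With every probe set tested by itself, where 1 called probe set is enough, the gene was called in both comparisons. For LPS+M against M only the probe set with 0.65 passed the fold minimum, and for LPS+M against LPS the chosen one did not. The effect of menthol with LPS minus that without it was -0.15 ± 0.09 (95% interval -0.35 to 0.06).

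Hexokinases phosphorylate glucose and so trap it in the cell. Hk2 had a log2 signal of 10.93 and 10.85 in LPS+M cells, 10.71 and 10.71 in LPS cells, 9.91 and 9.84 in M cells, and 9.75 and 9.81 in C cells. All 4 arrays with LPS lay above all 4 without it. Hk2 rose in LPS compared to C cells by 0.93 ± 0.06 (1.91-fold, limma adjusted p = 5.37e-05) and in LPS+M cells, against M cells, by 1.02 ± 0.06 (2.02-fold, limma adjusted p = 5.27e-05). These comparisons share no array but use the same estimate of the spread. Its value for M against C was 0.09 ± 0.06 (95% interval -0.05 to 0.24, limma adjusted p = 0.334) and for LPS+M against LPS 0.18 ± 0.06 (0.03 to 0.32, limma adjusted p = 0.0706), neither called. In LPS+M compared to C cells it rose by 1.11 ± 0.06, or 2.16-fold (limma adjusted p = 1.61e-05).

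Hk1, the hexokinase most tissues use, ran the other way. Its log2 signal was 10.70 and 10.45 in LPS+M cells, 10.34 and 10.20 in LPS cells, 10.92 and 10.92 in M cells, and 10.77 and 10.84 in C cells, so every array with LPS lay below every array without it. LPS compared to M cells gave a log2 fold change of -0.65 ± 0.09 (limma adjusted p = 0.00127), the only comparison in which Hk1 was called. Without the second LPS array the value was -0.58 and not called. LPS compared to C cells gave -0.54 ± 0.09 (limma adjusted p = 0.00553), under the fold minimum. This value was -0.61 without the first LPS array, and -0.97 and called when the probe sets of Hk1 were averaged. The probe set averaged with the chosen one lay just under the filter (mean 4.74) and gave -1.40. LPS+M compared to C cells gave -0.23 ± 0.09 (limma adjusted p = 0.0933). Hk3, a hexokinase of myeloid cells, lay between 9.43 and 9.69 on all arrays and was not called anywhere.

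**Figure D3:**
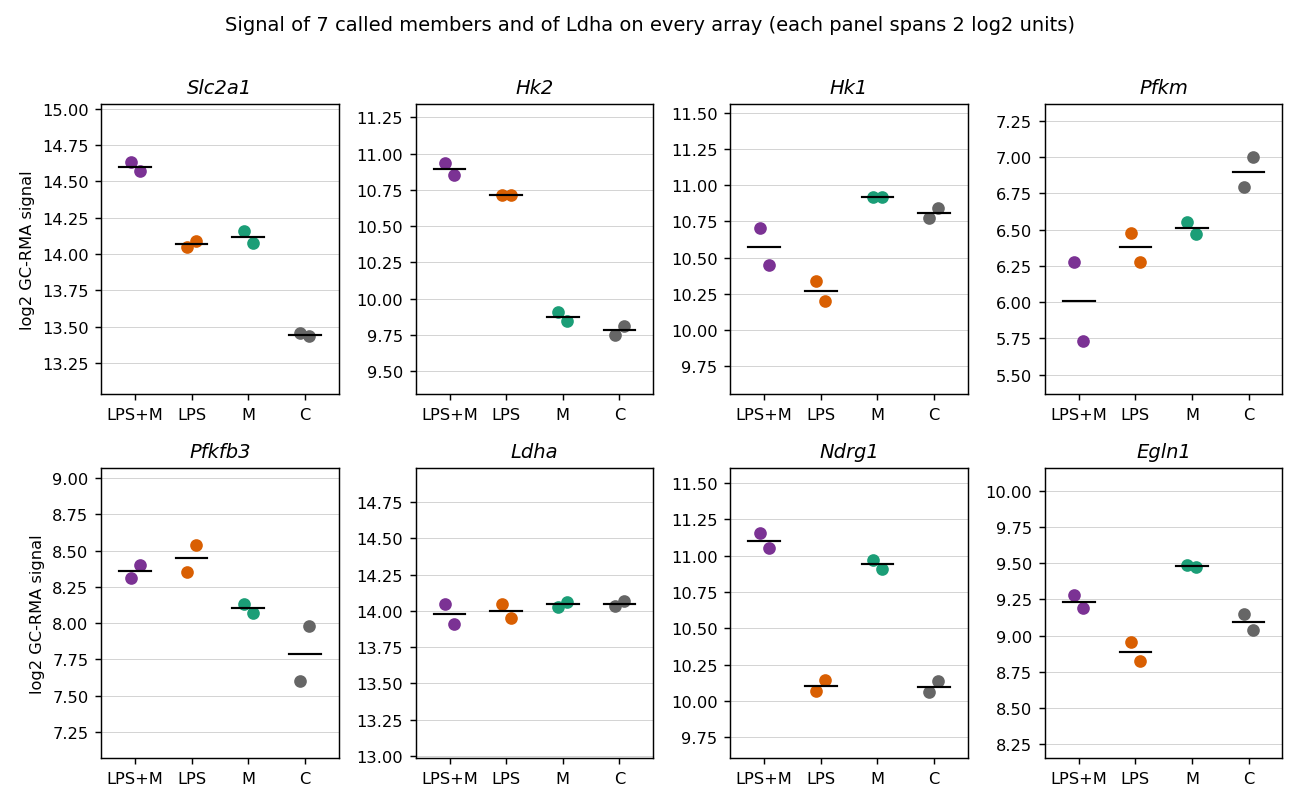
log2 signal (vertical axis, 2 log2 units in each panel) of the 7 called members and of Ldha on each array, with groups LPS+M, LPS, M and C from left to right and a bar at each group mean. Hk2 is high on the arrays with LPS, Ndrg1 on the arrays with menthol, Slc2a1 highest with both, and Ldha is level, with 13.91 to 14.07 on all arrays.

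Phosphofructokinase commits glucose to glycolysis, and Pfkfb3 makes the sugar phosphate that activates it. Pfkfb3 had a log2 signal of 8.31 and 8.40 in LPS+M cells, 8.36 and 8.54 in LPS cells, 8.13 and 8.07 in M cells, and 7.60 and 7.98 in C cells. The C arrays were the lowest and differed from each other by more than those of any other group. Pfkfb3 rose in LPS compared to C cells by 0.66 ± 0.12 (1.58-fold, limma adjusted p = 0.00779), and LPS+M compared to C cells gave 0.57 ± 0.12 (limma adjusted p = 0.00934), under the fold minimum. The rise was 0.47 without the first C array and 0.57 without the second LPS array, both under the fold minimum. It was 0.37 and not called when the probe sets of Pfkfb3 were averaged. The probe set averaged with the chosen one lay under the filter (mean 2.57) and gave 0.07. LPS+M compared to C cells was called without the first LPS+M array (0.61) or the second C array (0.75).

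The muscle-type subunit Pfkm was the only member that fell in LPS+M compared to C cells. Its log2 signal was 6.28 and 5.73 in LPS+M cells, 6.48 and 6.28 in LPS cells, 6.55 and 6.47 in M cells, and 6.79 and 6.997 in C cells. Both C arrays lay above all others, and the LPS+M arrays were 0.55 apart, the widest gap of any of its groups. The log2 fold change was -0.89 ± 0.17 (1.86-fold, limma adjusted p = 0.0049). Without the first LPS+M array Pfkm was also called in LPS+M compared to LPS cells (-0.65, against -0.37 with all arrays) and compared to M cells (-0.78, against -0.51). Pfkp, the platelet-type subunit, gave 0.46 ± 0.09 in LPS+M compared to LPS cells (limma adjusted p = 0.00694) and Pfkl, the liver-type subunit, 0.41 ± 0.17 (limma adjusted p = 0.10), and neither was called, although Pfkl was without the first LPS array (0.71). Of the 8 tested members between the hexokinases and triose phosphate, 1 rose and none fell with LPS against C, where 3.17% of all genes rose and 2.96% fell. None was called for M against C (3.01% and 1.54% of all genes), LPS+M against LPS (4.22% and 2.49%) or LPS+M against M (2.39% and 1.77%). With 8 genes, such counts do not set these steps apart from all genes. Pfkfb4, an enzyme of the kind of Pfkfb3, and the aldolase genes Aldoa and Aldoc, with Tpi1, which interconverts triose phosphates, had a highest and a lowest group mean 0.13 to 0.29 apart on the log2 scale.

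Most of the later steps, which yield ATP and pyruvate, differed little. The highest and the lowest group mean lay 0.03 apart for Pgk1, 0.07 for Gapdh and Ldha, 0.09 for Pgam1 and 0.30 for Pkm, which encodes pyruvate kinase. Ldha, the subunit of lactate dehydrogenase that favours lactate, had a log2 signal of 14.05 and 13.91 in LPS+M cells, 14.05 and 13.95 in LPS cells, 14.03 and 14.06 in M cells, and 14.04 and 14.07 in C cells, so its groups overlapped. Its log2 fold change was -0.05 ± 0.07 for LPS against C (95% interval -0.22 to 0.11) and -0.07 ± 0.07 for LPS+M against C (-0.24 to 0.09), so that a change of 1.5-fold lay outside both intervals. Gapdh, whose enzyme oxidises glyceraldehyde phosphate, lay between 15.09 and 15.24 on all arrays, and LPS+M against C gave -0.01 ± 0.07 (95% interval -0.16 to 0.14).

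Pkm had a log2 signal of 13.79 and 13.71 in LPS+M cells, 13.68 and 13.43 in LPS cells, 13.82 and 13.90 in M cells, and 13.77 and 13.74 in C cells. The LPS arrays were the lowest, and LPS compared to M cells gave -0.30 ± 0.09 (limma adjusted p = 0.0282), under the fold minimum. Eno2, the neuronal-type enolase, gave 0.49 ± 0.11 in LPS+M compared to C cells (limma adjusted p = 0.0124), also under it but called without the first LPS+M array (0.63). The probe sets of 11 members, Slc2a1 and most of the lower enzymes among them, read 13.43 to 15.24 on all arrays, where the highest value of any probe set on an array was 16.4 to 16.5. Slc2a1 had a called change within that range. Its probe sets with means of 14.06, 13.57 and 10.38 gave 1.16, 1.26 and 1.49 for LPS+M against C. They gave 0.68, 0.73 and 0.85 for M against C, but 0.63, 0.66 and 0.62 for LPS against C. Whether bright probe sets understate changes was not tested.

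No member of lactate transport or of the pyruvate dehydrogenase step was called in any comparison with all arrays. Slc16a1, which encodes the monocarboxylate transporter MCT1, lay between 11.29 and 11.68, and its value in LPS+M compared to LPS cells was -0.28 ± 0.10 (limma adjusted p = 0.0642). Slc16a3, which encodes MCT4, the transporter of lactate export in glycolytic cells, lay at 2.26 to 2.33 on all arrays, and Ldhb, the other lactate dehydrogenase subunit, at 4.38 to 4.87, both under the filter. Pdk1 and Pdk3, kinases that switch pyruvate dehydrogenase off, and Pdha1, a subunit of that enzyme, gave -0.44 ± 0.12, -0.34 ± 0.09 and -0.31 ± 0.07 in LPS+M compared to C cells (limma adjusted p = 0.022, 0.0171 and 0.0109). All 3 passed the adjusted p and missed the fold minimum. The other probe set of Pdha1 gave 0.06, and the other probe sets of Pdk1 above the filter gave -0.53 and -0.05. Pdk1 was called without the second LPS+M array (-0.62).

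The 3 tested members of the pentose phosphate pathway differed by at most 0.19 between group means on the log2 scale, and none was called in any comparison. Pgd, which encodes phosphogluconate dehydrogenase, the second NADPH-making enzyme, had a log2 signal of 13.95 and 13.95 in LPS+M cells, 13.94 and 13.95 in LPS cells, 13.91 and 13.91 in M cells, and 13.75 and 13.76 in C cells. The C arrays were below all others. LPS compared to C cells gave 0.19 ± 0.06 (limma adjusted p = 0.0433) and LPS+M compared to C cells 0.19 ± 0.06 (limma adjusted p = 0.0308), which is a 1.14-fold difference in both. Tkt and Taldo1, the transketolase and transaldolase of the branch that rearranges sugars, had group means within 0.12 and 0.13 of each other. Their 95% intervals for LPS against C were -0.13 to 0.13 and -0.20 to 0.13.

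In the HIF group, Ndrg1, a stress-responsive gene induced by hypoxia, changed with menthol. Its log2 signal was 11.15 and 11.05 in LPS+M cells, 10.06 and 10.15 in LPS cells, 10.97 and 10.91 in M cells, and 10.06 and 10.14 in C cells, so that all arrays with menthol lay above all arrays without it and the LPS and C arrays overlapped. Ndrg1 rose in M compared to C cells by 0.84 ± 0.07 (1.79-fold, limma adjusted p = 0.000386) and in LPS+M cells, against LPS cells, by 1.00 ± 0.07 (limma adjusted p = 0.000124). These comparisons share no array but use the same estimate of the spread. LPS compared to C cells gave 0.01 ± 0.07 (95% interval -0.15 to 0.17), and LPS+M compared to M cells 0.16 ± 0.07 (limma adjusted p = 0.168). The effect of menthol with LPS minus that without it was 0.16 ± 0.10 (95% interval -0.07 to 0.38). Of its other probe sets above the filter, 3 gave 0.57 to 0.85 for M against C and 1.00 to 1.21 for LPS+M against LPS, and the one with the highest variance, used alone, was not called in either comparison. For LPS against C these probe sets gave -0.13, -0.13 and -0.62, against 0.01 for the chosen one. The value of -0.62 came from the probe set with the highest variance and was not called. For LPS+M against M they gave 0.09, 0.02 and 0.02.

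Hif1a, the oxygen-regulated subunit of HIF, had a log2 signal of 11.73 and 12.09 in LPS+M cells, 11.76 and 11.90 in LPS cells, 11.54 and 11.56 in M cells, and 11.36 and 11.39 in C cells. All arrays with LPS lay above all arrays without it. LPS compared to C cells gave 0.46 ± 0.11 (limma adjusted p = 0.025) and LPS+M compared to C cells 0.54 ± 0.11 (limma adjusted p = 0.00789), both under the fold minimum, and the second was called without the first LPS+M array (0.72). These are values of the transcript, and HIF is regulated mainly through the stability of its protein. Egln1, the prolyl hydroxylase that marks HIF for breakdown, had 9.28 and 9.19 in LPS+M cells, 8.95 and 8.82 in LPS cells, 9.49 and 9.47 in M cells, and 9.15 and 9.04 in C cells. The LPS arrays were the lowest and the M arrays the highest. LPS compared to M cells gave -0.59 ± 0.07 (1.51-fold, limma adjusted p = 0.000642), just past the fold minimum. It was not called without the second LPS array (-0.53), without the first M array (-0.58), with quantile normalization (-0.56) or when its probe sets were averaged (-0.55). M compared to C cells gave 0.39 ± 0.07 (limma adjusted p = 0.00904) and LPS+M compared to LPS cells 0.34 ± 0.07 (limma adjusted p = 0.0116), under the fold minimum.

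The other HIF targets had small differences or a dim signal, and none was called in any comparison. P4ha1, a prolyl hydroxylase of collagen, had a log2 signal of 9.27 and 9.11 in LPS+M cells, 8.98 and 8.95 in LPS cells, 9.06 and 9.13 in M cells, and 8.90 and 8.79 in C cells. Bnip3, which takes part in the removal of mitochondria, had 10.33 and 10.34 in LPS+M cells, 10.23 and 10.22 in LPS cells, 10.33 and 10.35 in M cells, and 10.14 and 10.14 in C cells. For both genes all 4 arrays with menthol lay above all 4 without it. P4ha1 gave 0.25 ± 0.08 in M compared to C cells and 0.34 ± 0.08 in LPS+M compared to C cells (limma adjusted p = 0.0478 and 0.00957), and Bnip3 gave 0.20 ± 0.06 and 0.19 ± 0.06 (limma adjusted p = 0.0399 and 0.0302), all under the fold minimum. In LPS+M compared to LPS cells they gave 0.22 ± 0.08 and 0.11 ± 0.06 (limma adjusted p = 0.0639 and 0.184). Vegfa, the vascular growth factor, lay at 2.48 to 2.56 on all arrays, Adm, the vasodilator peptide adrenomedullin, at 2.69 to 2.75, and the prolyl hydroxylase Egln3 at 2.35 to 2.40. All 3 were under the filter on every array, and none differed between any groups by more than 0.03 on the log2 scale, which says only that these probe sets read no change at the bottom of the scale.

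The median log2 fold change of each list was set beside that of all genes. The 22 glycolysis members had a median of 0.01 in M compared to C cells, -0.07 in LPS compared to C, -0.03 in LPS+M compared to LPS and -0.05 in LPS+M compared to M, where all genes had 0.02, -0.03, 0.03 and -0.03. The 5 HIF members had 0.25, 0.08, 0.22 and 0.09 in the same comparisons. With no filter, which adds the 3 dim HIF members, these were 0.19, 0.01, 0.10 and 0.02. With averaged probe sets the value for LPS+M against LPS was 0.13, and that for LPS+M against M was 0.02 with the probe sets of highest variance, 0.01 without the first LPS+M array and 0.17 without the second. The 3 members of the pentose phosphate pathway had 0.06, 0.00, -0.00 and 0.03, and 0.10 in each of the 4 with the probe sets of highest variance. Leaving out 1 array moved their median to between 0.02 and 0.10 for M against C, and without the first LPS+M array it was -0.04 for LPS+M against M. At the median, the spread between groups over all members was close to that of other genes. The median distance between the highest and the lowest group mean was 0.308 over the 30 members and 0.309 over all 8909 genes. The distance was under 0.2 for 10 members (33.3%) and for 28.5% of all genes. It was under 0.5 for 22 members (73.3%) and 75.2% of all genes, and under 1 for 27 members (90%) and 94.2%. In the test of whether menthol acted differently with and without LPS, none of the 30 was called by limma, where 0.236% of all genes were. At an unadjusted p under 0.05 there were 2 (6.67%), where 10.0% of all genes passed. They were Pfkfb3 and Pfkfb4, with -0.40 ± 0.17 and -0.28 ± 0.12 (limma adjusted p = 0.498 and 0.494).

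Wider lists of the same pathways, also chosen with earlier results known, were read in the same fit. Of 18 tested genes among 32 others of glycolysis, pyruvate and lactate, 1 rose and none fell in each of the 4 comparisons M with C, LPS with C, LPS+M with LPS and LPS+M with M, where 3.01%, 3.17%, 4.22% and 2.39% of all genes rose. The hexose transporter gene Slc2a6 rose in LPS compared to C cells by 0.91 ± 0.07 (limma adjusted p = 0.000128) and in LPS+M cells, against M cells, by 0.83 ± 0.07 (limma adjusted p = 0.000292). Slc16a6, of the monocarboxylate transporter family, rose in M compared to C cells by 0.63 ± 0.08 (limma adjusted p = 0.00173) and in LPS+M cells, against LPS cells, by 0.75 ± 0.08 (limma adjusted p = 0.0005). Slc2a6 was thus called in these comparisons together with Hk2, and Slc16a6 together with Ndrg1. Adpgk, which encodes a glucokinase that uses ADP, was called only in LPS compared to M cells (0.64 ± 0.08, limma adjusted p = 0.000612). Of 7 tested genes among 9 others of the pentose phosphate pathway and ribose phosphate use, none was called in those 4 comparisons. Prps2, which uses ribose phosphate for nucleotide synthesis, gave -0.78 ± 0.07 in LPS+M compared to C cells (limma adjusted p = 0.00019), and H6pd, which starts the pathway in the endoplasmic reticulum, -0.64 ± 0.10 in LPS compared to M cells (limma adjusted p = 0.00209).

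Among 28 other hypoxia genes, 21 were tested. As earlier results of these data were known when the list was chosen, its counts and medians are descriptive and test nothing. In M compared to C cells 5 rose and none fell, and in LPS+M compared to LPS cells 7 rose and none fell, where 3.01% and 4.22% of all genes rose and 1.54% and 2.49% fell. The median over the list was 0.23 and 0.18 in these comparisons, against 0.02 and 0.03 over all genes. In LPS compared to C cells 1 rose and 5 fell (3.17% and 2.96% of all genes), and in LPS+M compared to M cells none rose and 1 fell (2.39% and 1.77%), with list medians of -0.02 and -0.04 against -0.03 and -0.03 over all genes. Ddit4, an inhibitor of mTOR signalling that is induced by hypoxia and other stresses, had a log2 signal of 9.14 and 9.12 in LPS+M cells, 6.05 and 6.04 in LPS cells, 9.19 and 9.21 in M cells, and 6.64 and 6.93 in C cells. Its arrays with menthol stood far above those without. Ddit4 rose by 2.42 ± 0.09 in M compared to C cells (5.33-fold, limma adjusted p = 2.66e-05) and by 3.08 ± 0.09 in LPS+M compared to LPS cells (8.47-fold, limma adjusted p = 9.36e-06), and it fell by 0.74 ± 0.09 in LPS compared to C cells (limma adjusted p = 0.00121).

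Ero1a, an oxidase of protein folding, rose by 0.84 ± 0.08 with menthol alone (limma adjusted p = 0.000709) and by 1.07 ± 0.08 in LPS+M compared to LPS cells (limma adjusted p = 0.000161). Mxi1, an antagonist of MYC, rose by 1.00 ± 0.06 and 0.83 ± 0.06 in the same comparisons (limma adjusted p = 0.000132 and 0.000148). Cxcr4, a chemokine receptor, rose by 0.60 ± 0.10 and 1.36 ± 0.10 in these comparisons (limma adjusted p = 0.0049 and 0.000128). Menthol thus went with higher Ndrg1, Ddit4, Ero1a, Mxi1 and Cxcr4 both with and without LPS. Cxcr4 fell by 1.44 ± 0.10 in LPS compared to C cells (limma adjusted p = 5.24e-05) and by 0.68 ± 0.10 in LPS+M compared to M cells (limma adjusted p = 0.00322), and its value in LPS+M compared to C cells was -0.08 ± 0.10.

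Egr1, an immediate early transcription factor, rose by 1.26 ± 0.11 in LPS+M compared to LPS cells (limma adjusted p = 0.000239) and fell by 0.77 ± 0.11 in LPS compared to C cells (limma adjusted p = 0.00184). Bhlhe40, a transcriptional repressor, rose by 1.13 ± 0.08 and fell by 0.84 ± 0.08 in the same comparisons (limma adjusted p = 0.000138 and 0.000379). In M compared to C cells Egr1 gave 0.49 ± 0.11 and Bhlhe40 0.33 ± 0.08 (limma adjusted p = 0.0146 and 0.0259), under the fold minimum. Kdm3a, a histone demethylase, rose by 0.68 ± 0.06 both in LPS+M compared to LPS cells and in LPS+M compared to C cells (limma adjusted p = 0.000361 and 0.000176). Its group means were 9.89 in LPS+M, 9.21 in LPS, 9.80 in M and 9.21 in C cells. All its arrays with menthol thus lay above all without it, and M compared to C cells fell just short of the fold minimum. Vhl, part of the complex that marks HIF for breakdown, rose by 0.68 ± 0.09 in M compared to C cells (limma adjusted p = 0.00223). Hmox1, the haem oxygenase, rose in LPS compared to C cells by 0.70 ± 0.06 (limma adjusted p = 0.000163), while Epas1, which encodes another HIF alpha subunit, gave -0.59 ± 0.07 (limma adjusted p = 0.000717). Several of these genes are also induced by stresses other than hypoxia, and oxygen was not measured.

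**Figure D4:**
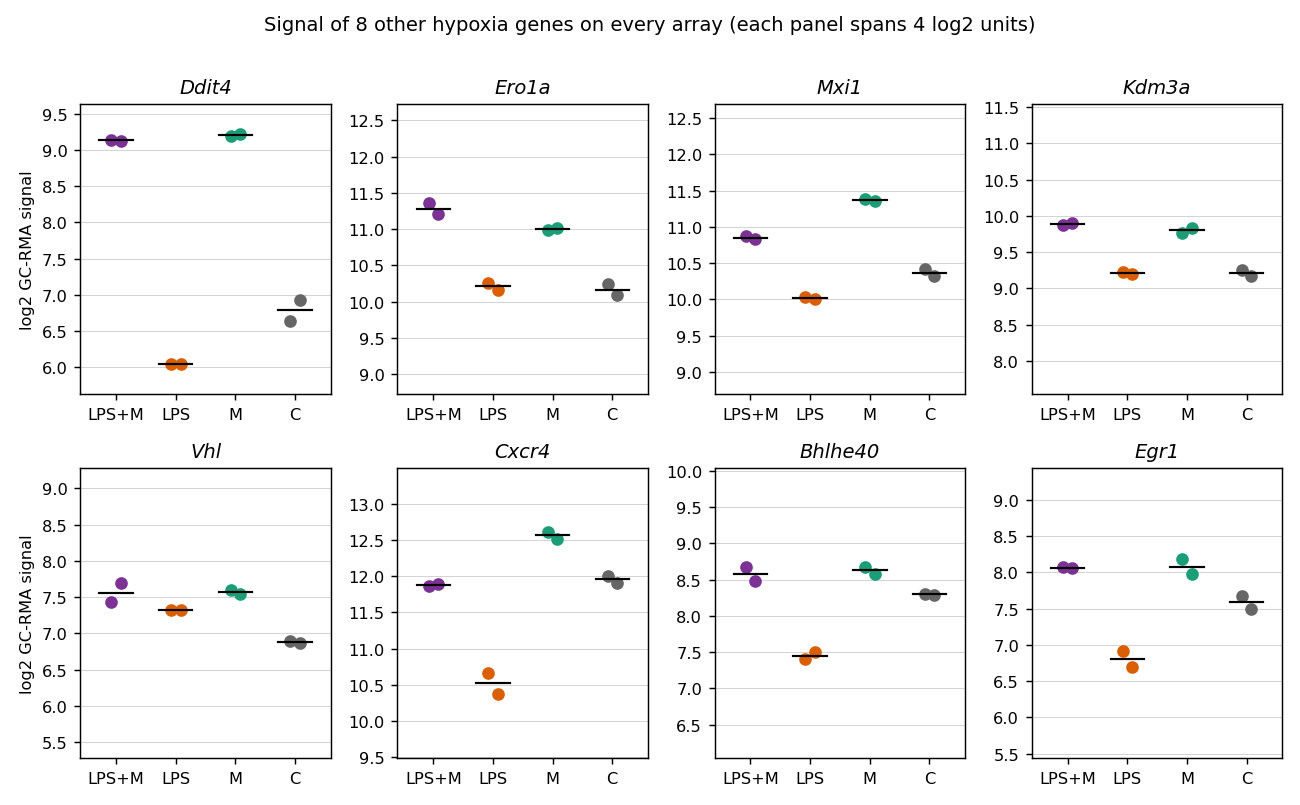
log2 signal (vertical axis, 4 log2 units in each panel) of 8 of the other hypoxia genes on each array, with groups LPS+M, LPS, M and C from left to right and a bar at each group mean. Ddit4 reads 9.12 to 9.21 on the 4 arrays with menthol and 6.04 to 6.93 on the 4 without.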

How the data were processed

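Total RNA of RAW 264.7 macrophages was read on 8 arrays, 2 for each of the groups LPS+M, LPS, M and C, which were taken from the sample labels. The deposited values are log2 signals that the authors made with GCRMA (version 2.10.0, under R version 2.6.1). This method estimates background from the GC content of each probe and brings the arrays to one distribution, which can compress the differences of dim probe sets. They were used as deposited. Of 45101 probe sets, 34958 with exactly 1 gene symbol were kept, including 13 control-named ones of mouse genes. The fit was made with limma 3.58.1 in R 4.3.3 (lmFit, eBayes) on all 8 arrays, with 1 coefficient per group and 4 residual and 3.778 prior degrees of freedom, and p-values were adjusted over the 8909 genes with a mean above 4.84. It was tested on simulated data. Members and lists were chosen with earlier results of these data known. Called members have their value on every array, as have a few with a defining role, and of the wider lists up to 6 called genes with the largest change in a comparison are named. Alternatives were other filters, probe sets, normalizations, tests, fold minimums, a replicate block and leaving out each array.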

Additional observations from a re-analysis of the deposited data

How the results depend on the processing

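Of the 30 tested members, limma called 2 for M against C, 3 for LPS against C, 1 for LPS+M against LPS, 1 for LPS+M against M, 4 for LPS+M against C and 4 for LPS against M, and no called value changed sign under any alternative. With no fold minimum these counts were 6, 6, 6, 5, 16 and 6, where 21.7%, 21.7%, 28.7%, 14.2%, 34.6% and 38.7% of all genes passed. With a minimum of 2-fold they were 0 for M against C, LPS against C, LPS+M against LPS and LPS against M (0.954%, 2.07%, 1.53% and 3.69% of all genes). At that minimum 1 passed for LPS+M against M and 3 for LPS+M against C (1.53% and 3.01% of all genes). After Benjamini-Hochberg adjustment the methods' t-test called 0 in each of the 6 comparisons, while at its unadjusted p and the same fold it called 2, 2, 1, 1, 3 and 2 (2.85%, 3.92%, 3.23%, 2.44%, 5.65% and 7.18% of all genes), without Pfkfb3, Pfkm, Hk1 and Egln1. With the probe set of highest variance the counts were 1 for M against C and 2 for LPS+M against M, with the mean of the probe sets 2 for LPS+M against LPS, and with every probe set by itself 2 for LPS+M against LPS and 2 for LPS+M against M, Slc2a1 being the gene added. For LPS+M against LPS the main fit called 376 of all genes higher and 222 lower. Every probe set by itself gave 519 and 406, where 1 called probe set is enough, and the mean of the probe sets gave 218 and 153. For LPS+M against M these were 213 and 158 in the main fit and 236 and 194 with every probe set by itself. Leaving out 1 array gave 2 to 2 calls for M against C, 2 to 4 for LPS against C, 1 to 2 for LPS+M against LPS, 1 to 2 for LPS+M against M, 4 to 7 for LPS+M against C, 2 to 4 for LPS against M and 0 to 0 for the interaction. Without the first LPS+M array there were 7 for LPS+M against C, with Pfkfb3, Eno2 and Hif1a added, and 2 each for LPS+M against LPS and against M, with Pfkm added. Without the first LPS array there were 2 for LPS+M against LPS, with Pfkl added, and without the second LPS array 2 for LPS against M, with Hk1 and Egln1 lost. The cause was not tested. Deviations of samples with the same replicate number correlated at -0.12 to 0.19 between groups, highest for LPS with LPS+M. With 2 arrays per group this cannot tell whether the numbers pair some of the arrays. With the replicate block the counts were 2, 3, 1, 1, 4, 4 and 0. Arrays shifted to the same median moved the median of all genes by under 0.1 and changed no call of a member, though calls over all genes changed.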
